A study of Mus musculus with 4 samples.

Results

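Transcript levels of 10 genes of the RNA exosome system were followed across 4 stages of the mouse testis. The members were listed by name, as entries of the gene column of the deposited tables: the core subunits EXOSC3, EXOSC4, EXOSC5, EXOSC8 and EXOSC9, the exonucleases DIS3, DIS3L, DIS3L2 and EXOSC10, and the helicase SKIV2L. All 10 were found among 112302 entries, and all 10 had 1 or more RPKM (reads divided by gene model length and by the library's total reads) in at least 1 library. The samples were testis RNA of the BALB/C strain at embryonic days 14 (E14) and 18 (E18) and, after birth, at 3 weeks and 6 months, with no treatment or mutation named. The RNA was bought from a supplier, and how many animals went into each sample is not stated in the labels. Each stage had 1 library, so no difference below has a replicate check and no p-value was computed.

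The RNA exosome degrades and trims RNA from its 3′ end. In mammals its core is a ring of RNase PH-like subunits with a cap of RNA-binding subunits, and this core has lost its own catalytic activity. The cutting is done by attached exonucleases: DIS3 mainly in the nucleus, DIS3L in the cytoplasm and EXOSC10 in the nucleus and nucleolus. DIS3L2 is a related cytoplasmic enzyme that works without the exosome and prefers RNA with added uridines. In the cytoplasm the Ski complex, whose helicase is SKIV2L, threads messenger RNA into the exosome. Spermatogenic cells transcribe widely and later store and clear RNA, so RNA decay enzymes have long been studied there.

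The reads behind the RPKM values numbered 38903334 at E14, 34228140 at E18, then 33952471 at 3 weeks and 35801602 at 6 months, and the 10 members took between 3653 reads (E14) and 14778 reads (6 months). These read numbers were recovered from the steps between RPKM values, and the exact Poisson intervals printed with levels (95%) cover counting error only. The cell make-up differed strongly between the libraries. Summed RPKM of 7 spermatocyte markers was 1.16 at E14, 4.92 at E18, then 474 at 3 weeks and 203 at 6 months, with 0, 1, 7 and all 7 of them at 1 RPKM or more. For 7 elongating spermatid markers the sums were 1.39, 2.21, 22.97 and 6477 RPKM, in the same order of stages. Sertoli cell markers, which define the labelled tissue in the fetus, summed to 7.31 RPKM at E14, with 2 of 7 at 1 RPKM or more. The sums were 59.8 RPKM at E18, 66.9 at 3 weeks and 62.6 at 6 months, with 6, 6 and 5 of 7 at that level. Of these sums CST9 alone took 27.7, 46.6 and 49.2 RPKM, so the rest of the sum was smaller at each later stage. The E14 library also carried markers of liver (296 RPKM), skeletal muscle (186 RPKM) and cartilage (67.6 RPKM), the E18 library those of liver (57.7 RPKM), skeletal muscle (44.2 RPKM), bladder (41.3 RPKM) and kidney tubule (22.6 RPKM), and the 3-week library those of epididymis (44.4 RPKM). Of the epididymis sum at 3 weeks CRISP1 alone took 41.5 RPKM, and 2 of the 4 markers were at 1 RPKM or more. In such bulk samples, fewer cells of a type and less RNA per cell cannot be told apart, and the part of cell make-up in the differences below was not tested.

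Among the exonucleases, DIS3L had by far the largest difference between stages. Its level was 1.82 RPKM at E14 (interval 1.64 to 2.01), 2.39 RPKM at E18 (2.17 to 2.62), 40.5 RPKM at 3 weeks (39.6 to 41.5) and 33.4 RPKM at 6 months (32.6 to 34.2). Both postnatal libraries thus stood far above both fetal ones, and no interval overlapped that of another stage. The reads behind these levels were 386, 446, 7513 and 6532. At 3 weeks DIS3L was 17.0 times its E18 level (exact Clopper-Pearson interval of the read ratio 15.4 to 18.7), a difference of 3.62 in log2(RPKM + 1). At 6 months it was 0.825 times its 3-week level (0.798 to 0.852, log2 difference -0.27), a small difference that changed sign when the libraries were rescaled by the median of ratios. Among 12661 protein-coding symbols that reached 1 RPKM in any library, 54.3% lay below DIS3L at E14, 59.5% at E18, then 98.1% at 3 weeks and 96.0% at 6 months. The gene lies on chromosome 9 (GRCm38, 64306756 to 64341288, minus strand), and the length of the authors' gene model, recovered as 5458 bases, equalled its annotated exon length. Its exons share no bases with another annotated gene. Epididymis markers summed to 44.4 RPKM at 3 weeks (CRISP1 alone 41.5), where DIS3L had 40.5 RPKM, and to 0.0197 RPKM at 6 months, where it had 33.4 RPKM. The part of such tissue in these levels was not tested.

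The other nucleases covered a far narrower range. DIS3, the nuclear catalytic subunit, had 2.45 RPKM at E14 (2.20 to 2.71), 2.19 RPKM at E18 (1.94 to 2.46), 4.399 RPKM at 3 weeks (4.04 to 4.78) and 5.83 RPKM at 6 months (5.43 to 6.25). The fetal intervals overlapped, and both postnatal levels lay above them. The ratio of 3 weeks over E18 was 2.01 (1.74 to 2.33), or 0.76 on the log2(RPKM + 1) scale, which is under the limit of 2-fold used here, while 6 months over E18 passed it at 1.10. DIS3L2 had 2.98 RPKM at E14, 3.59 at E18, then 4.45 at 3 weeks and 5.94 at 6 months, so that its highest level was 1.99 times its lowest. Its difference of 3 weeks over E18 (0.25) changed sign under the median of ratios (-0.02). It also did so with an equal sum over protein-coding genes (-0.06). Under ribosomal protein scaling, though, this difference passed the limit (1.14), as did those of DIS3 (1.59) and EXOSC10 (1.83). EXOSC10, the nuclear exonuclease related to bacterial RNase D, was the highest of the 10 members in both fetal libraries, with 5.72 RPKM at E14 (5.33 to 6.13) and 7.30 at E18 (6.83 to 7.80). It stood at 13.6 RPKM at 3 weeks (12.9 to 14.2) and 11.7 RPKM at 6 months (11.1 to 12.3), with no interval overlapping that of an adjacent stage. The difference of 3 weeks over E18 was 0.81 in log2(RPKM + 1). That of 6 months over 3 weeks (-0.20) changed sign under the median of ratios (0.44).

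**Figure D1:**
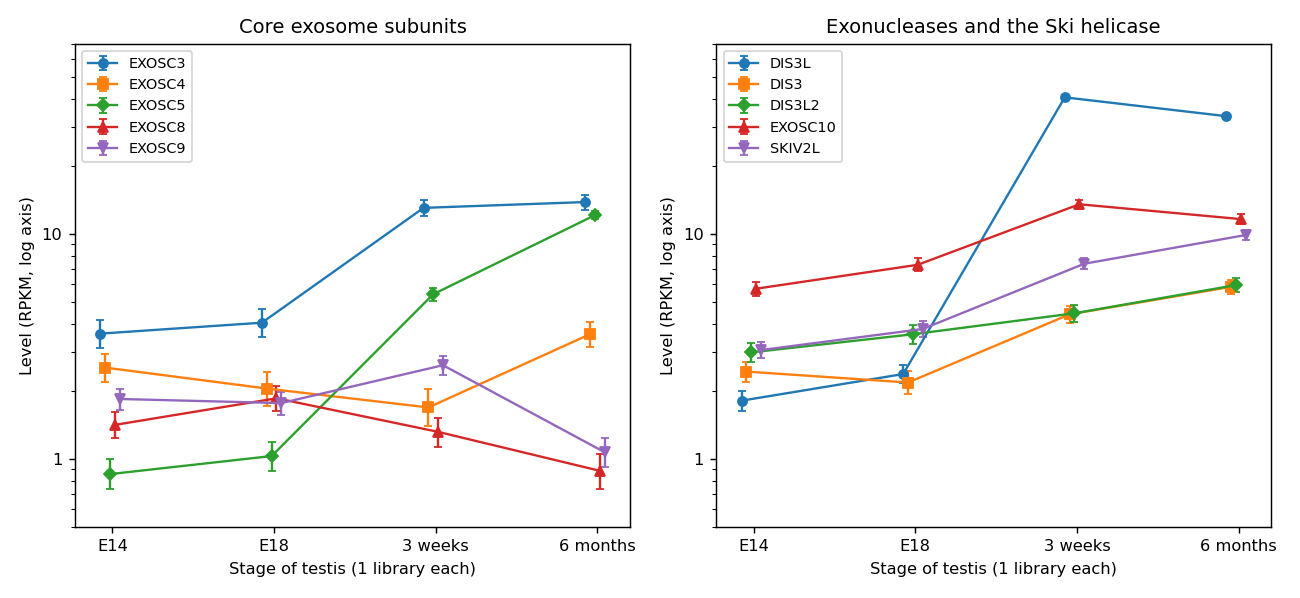
Levels of the 10 members in RPKM (log axis) at the 4 stages of testis, with 1 library a stage. Points are the deposited values and bars are exact Poisson 95% intervals (counting error only). DIS3L reached 40.5 RPKM at 3 weeks, while EXOSC8 and EXOSC9 stayed between 0.887 and 2.61 RPKM.

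The balance between the paralogs shifted accordingly. The ratio of DIS3L to DIS3, both per length, was 0.742 at E14 (Clopper-Pearson interval 0.642 to 0.859), 1.09 at E18 (0.938 to 1.27), 9.22 at 3 weeks (8.46 to 10.1) and 5.73 at 6 months (5.33 to 6.18). Per length DIS3 was the higher of the pair at E14, the interval included 1 at E18, and DIS3L was the higher after birth. By reads not divided by length the ratio was 1.07 at E14 (386 against 361 reads), with no interval computed. That DIS3 was the higher at that stage thus depended on the model length, while after birth DIS3L was the higher either way. Of the summed RPKM of the 4 exonucleases, EXOSC10 made up 44.1% at E14, 47.2% at E18, then 21.6% at 3 weeks and 20.5% at 6 months. DIS3L made up 14.02%, 15.4%, 64.4% and 58.8% in the same order. The sum itself was 12.97 RPKM at E14, 15.5 at E18, then 62.96 at 3 weeks and 56.9 at 6 months. The recovered model of DIS3, 3790 bases, is shorter than its annotated exon length of 7754 bases, and that of DIS3L2 is 3510 of 8901 bases, so the ratios between genes depend on the models the authors used. DIS3 also shares 325 exon bases (4.19% of the annotated length) with Pibf1 on the opposite strand, which had 0.660, 0.831, 5.33 and 2.59 RPKM over the 4 stages, and the part of such reads was not tested.

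**Figure D2:**
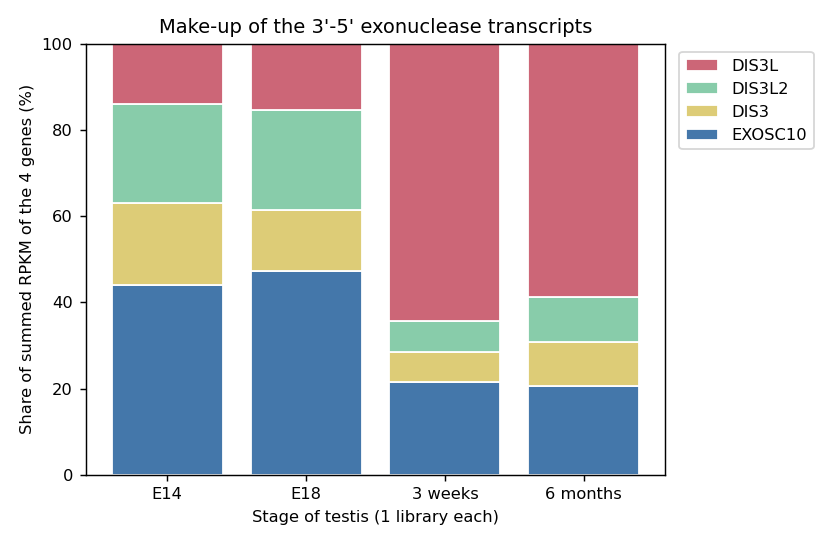
Share of each of the 4 exonuclease genes in their summed RPKM (stacked bars, percent, axis from 0) at each stage, with 1 library a stage. DIS3L took 14.02% at E14, 15.4% at E18, then 64.4% at 3 weeks and 58.8% at 6 months.

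Within the core, EXOSC3 and EXOSC5 were past 2-fold at 3 weeks against E18, and EXOSC4, EXOSC8 and EXOSC9 were not. EXOSC3, an RNA-binding cap subunit, had 3.61 RPKM at E14 (3.11 to 4.17), 4.04 at E18 (3.47 to 4.67), 13.1 at 3 weeks (12.04 to 14.2) and 13.9 at 6 months (12.8 to 15.0). Its levels formed a fetal pair and a postnatal pair, with overlapping intervals within each pair and none between them. The ratio of 3 weeks over E18 was 3.24 (2.74 to 3.85), a difference of 1.48 in log2(RPKM + 1). EXOSC5, a ring subunit, was the lowest member in both fetal libraries, with 0.857 RPKM at E14 (0.734 to 0.996) and 1.03 at E18 (0.887 to 1.19), and had 5.41 at 3 weeks (5.07 to 5.76) and 12.1 at 6 months (11.6 to 12.6). It was the member with a difference past 2-fold at both later steps, with ratios of 5.24 (4.47 to 6.18) for 3 weeks over E18 and 2.24 (2.08 to 2.43) for 6 months over 3 weeks. The log2(RPKM + 1) differences were 1.66 and 1.04, and the second was under the limit, at 0.82, when libraries were rescaled to an equal sum over protein-coding genes. That EXOSC5 was the lowest member at E18 depended on the model lengths, recovered as 5127 bases for EXOSC5 and 1945 for EXOSC4. By reads not divided by length EXOSC4 was lower at E18, with 137 against 181. At E14 EXOSC5 was the lowest member either way, with 171 reads. Exosc3 lies on chromosome 4 (45316613 to 45342732, minus strand) and Exosc5 on chromosome 7 (25659164 to 25671368, plus strand). They share 53 and 355 exon bases (4.003% and 5.66% of their annotated length) with opposite-strand genes, Dcaf10 and Tmem91, whose highest levels were 2.02 and 0.811 RPKM.

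EXOSC4, a ring subunit, had 2.55 RPKM at E14, 2.06 at E18, then 1.70 at 3 weeks and 3.59 at 6 months. Its intervals overlapped across each of the earlier steps and separated at the last, where 6 months over 3 weeks was 2.12 (1.69 to 2.67), or 0.77 in log2(RPKM + 1). This passed the limit with a pseudocount of 0.1 (1.04) and under the median of ratios (1.24). The annotation places 385 bases of its exons (19.8% of their length) under exons of Oplah on the opposite strand. Oplah, the gene of 5-oxoprolinase, had 0.997, 3.04, 4.53 and 15.7 RPKM over the 4 stages, and whether its reads entered EXOSC4 was not tested. EXOSC8, a ring subunit, had 1.42 RPKM at E14, 1.86 at E18, then 1.32 at 3 weeks and 0.887 at 6 months, its lowest level (0.739 to 1.06). EXOSC9, also of the ring, had 1.85 RPKM at E14, 1.77 at E18, then 2.61 at 3 weeks and 1.07 at 6 months. In the deposited RPKM both had their lowest level at 6 months, with ratios of 6 months over 3 weeks of 0.671 (0.530 to 0.848) for EXOSC8 and 0.411 (0.343 to 0.490) for EXOSC9. On the log2(RPKM + 1) scale these were -0.30 and -0.80, and neither passed the limit, although EXOSC9 did so (-1.21) with a pseudocount of 0.1. For EXOSC8 the sign turned (0.06) under the median of ratios, and under ribosomal protein scaling both EXOSC8 (0.11) and EXOSC9 (0.32) were above their E18 level at 6 months. EXOSC9 shares 510 exon bases (10.8% of its length) with Ccna2, a cyclin on the opposite strand, which had 13.05, 11.7, 3.44 and 1.31 RPKM. EXOSC8 shares 89 bases (2.05%) with Supt20, also on the opposite strand, which had 5.09, 5.92, 88.4 and 70.8 RPKM.

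The remaining core subunits, EXOSC1, EXOSC2, EXOSC6 and EXOSC7, did not pass the limit at any of the adjacent steps. EXOSC1 (1.51) and EXOSC2 (1.11) did so at 3 weeks against E18 under ribosomal protein scaling, as did EXOSC1 (1.19) and, at 6 months against 3 weeks, EXOSC6 (-1.62) with a pseudocount of 0.1. At 6 months against 3 weeks their differences lay between -0.57 and -0.79 in log2(RPKM + 1), against 0.08 for EXOSC3 and 1.04 for EXOSC5. EXOSC6 had 1.51, 1.28, 1.38 and 0.379 RPKM over the 4 stages, the last from 9 recovered reads, and was the lowest of these 4 genes in both postnatal libraries. Its model length was recovered as 663 bases, of 1326 annotated, so a common factor may be missing. In that case its read numbers are too low and its intervals too wide. EXOSC7 was the highest of these 4 in both fetal libraries, with 3.29 RPKM at E14 and 3.12 at E18, and EXOSC1 after birth, with 2.87 RPKM at 3 weeks and 1.45 at 6 months. The levels of the 9 core subunits therefore lay further apart at the later stages: the highest was 4.21 times the lowest at E14, 3.92 times at E18, then 9.90 times at 3 weeks and 36.6 times at 6 months. Without EXOSC6, whose 6-month level rests on few reads, the ratio was 15.7 at 6 months and the same as before at the other stages. The standard deviation of log2 RPKM over the 9 genes was 0.71, 0.68, 1.06 and 1.76 in that order. Levels are per length, so these spreads between genes also depend on the gene models the authors used. Their median was 1.51 RPKM at E14, 1.77 at E18, then 2.51 at 3 weeks and 1.32 at 6 months, and DIS3L was 1.202, 1.35, 16.2 and 25.4 times that median. Over the 5 core subunits among the members the median was 2.61 RPKM at 3 weeks and 3.59 at 6 months. DIS3L was 15.5 and 9.31 times that one. Whether the multiple was larger at 6 months than at 3 weeks thus depended on the set.

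**Figure D3:**
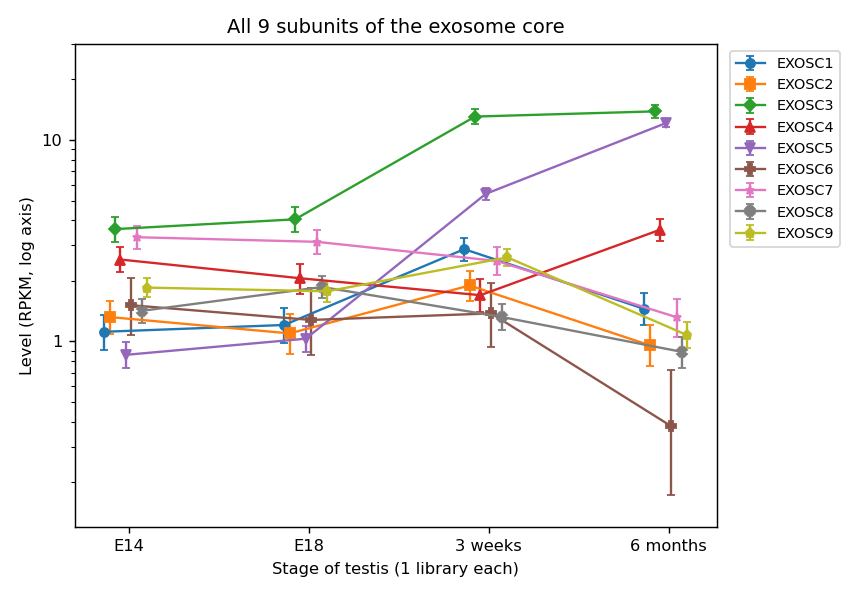
Levels of the 9 subunits of the exosome core in RPKM (log axis) at the 4 stages of testis, with 1 library a stage and exact Poisson 95% intervals as bars. At 6 months the subunits spread from 0.379 RPKM (EXOSC6) to 13.9 RPKM (EXOSC3), against 0.857 to 3.61 RPKM at E14.

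SKIV2L, the helicase of the Ski complex, had 3.05 RPKM at E14 (2.81 to 3.31), 3.78 at E18 (3.50 to 4.09), 7.38 at 3 weeks (6.98 to 7.80) and 9.91 at 6 months (9.45 to 10.4). Each stage was above the one before it with no overlap of intervals. The difference of 3 weeks over E18 was 0.81 in log2(RPKM + 1) and that of 6 months over E18 was 1.19, which passed the limit. Its partners in the complex had no difference past the limit, apart from WDR61 at 3 weeks against E18 under ribosomal protein scaling (1.03). TTC37, the scaffold, had 1.95, 2.04, 1.68 and 1.43 RPKM, and WDR61, a WD-repeat subunit, had 2.05, 2.37, 2.93 and 1.98 RPKM over the same stages. HBS1L, whose gene also encodes the factor that links the Ski complex to the exosome, had 1.29, 1.68, 3.57 and 4.58 RPKM, and its difference of 6 months over E18 was 1.06.

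Counted over the members, 0 of 10 were higher and 0 lower by 2-fold or more at E18 against E14, where 2.17% of all entries and 3.54% of protein-coding symbols were higher, and 1.34% and 1.63% were lower. The differences lay between -0.22 (EXOSC4) and 0.31 (EXOSC10). At 3 weeks against E18, 3 of 10 were higher and 0 lower. The background was 32.0% of all entries and 24.1% of protein-coding symbols higher, and 10.5% and 13.2% lower, so the share of members called higher lay close to the background. The median difference of the members was 0.78, against 0.46 over all entries and 0.23 over protein-coding symbols. At 4-fold 1 member remained, DIS3L, where 6922 of 42964 entries were higher. Under ribosomal protein scaling, which moved the median of all entries by 0.63, 8 members were past 2-fold, all but EXOSC4 (0.55) and EXOSC8 (0.38). Under that scaling 22769 of the 42964 entries were higher, so the larger member count came with a shift over all entries.

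In the last step, 6 months against 3 weeks, 1 of 10, EXOSC5, was higher and 0 were lower, where 9.73% of all entries and 9.54% of protein-coding symbols were higher, and 14.1% and 7.87% were lower. The member median was 0.21, against -0.31 over all entries and -0.22 over protein-coding symbols. The comparison of 6 months with E18 uses libraries of the steps above and is given beside them only: DIS3, DIS3L, EXOSC3, EXOSC5 and SKIV2L (5 of 10) were past 2-fold, all higher, where 32.9% of all entries and 24.9% of protein-coding symbols were higher, and 15.4% and 19.0% were lower. DIS3 and SKIV2L were under the limit, at 0.61 and 0.66, with an equal sum over protein-coding genes.

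**Figure D4:**
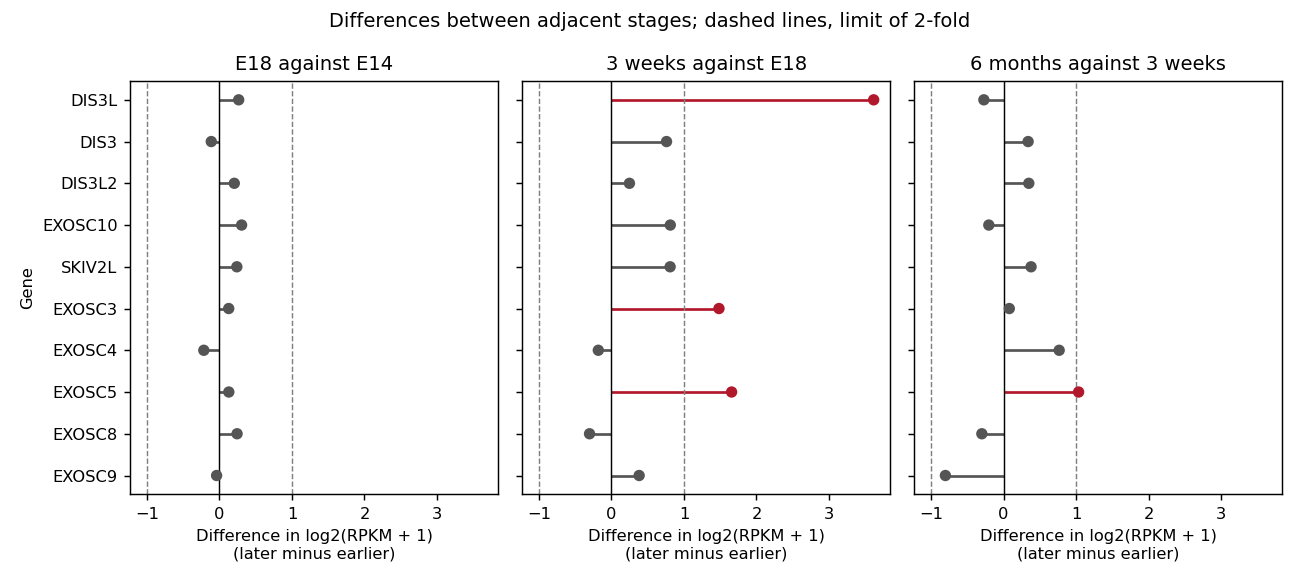
Difference in log2(RPKM + 1), later minus earlier stage, for each member at the 3 adjacent steps, with dashed lines at the limit of 2-fold and red points past it. At 3 weeks against E18, DIS3L (3.62), EXOSC5 (1.66) and EXOSC3 (1.48) were past the limit, and EXOSC5 (1.04) also was at 6 months against 3 weeks.

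The order of the members changed after birth. It is an order of levels per length and depends on the gene models. At 6 months EXOSC5 had 2227 reads (model of 5127 bases), while EXOSC3, ranked above it, had 658 (1324 bases). At E14 the order was EXOSC10, EXOSC3, SKIV2L, DIS3L2, EXOSC4, DIS3, EXOSC9, DIS3L, EXOSC8 and EXOSC5. From EXOSC3 to DIS3 each neighbour overlapped the next in its counting interval, as did EXOSC9 and DIS3L. At E18 EXOSC10 was again clear of the rest, EXOSC3, SKIV2L and DIS3L2 overlapped in turn, and so did the run from DIS3L through DIS3, EXOSC4 and EXOSC8 to EXOSC9. At 3 weeks DIS3L led, followed by EXOSC10 and EXOSC3, which overlapped, then by SKIV2L and EXOSC5, each separate, and by DIS3L2 and DIS3, which overlapped. At 6 months DIS3L led, EXOSC3 followed, EXOSC5 and EXOSC10 overlapped, as did DIS3L2 and DIS3, and EXOSC9 and EXOSC8 closed the order with overlapping intervals.

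Start-site sequences are shown for the members past 2-fold at 3 weeks against E18 (Dis3l, Exosc3 and Exosc5) and for Dis3, the paralog under that limit, so that their promoters can be read side by side. RefSeq windows on GRCm38.p6 covered 250 bases before and 50 after a start, and 7 of the 10 members had one, 9 windows in all. Capitals mark matches to searched letters on either strand. The Dis3l windows are chr9:64340724-64341023 and chr9:64340408-64340707 on the minus strand. The others are chr4:45320567-45320866 (Exosc3, minus strand), chr7:25658903-25659202 (Exosc5, plus strand) and chr14:99099721-99100020 (Dis3, minus strand). The Exosc3 window lies inside the annotated gene bounds given above, not at their 5′ end, which is 45342732 on the minus strand.
Dis3l, upstream window: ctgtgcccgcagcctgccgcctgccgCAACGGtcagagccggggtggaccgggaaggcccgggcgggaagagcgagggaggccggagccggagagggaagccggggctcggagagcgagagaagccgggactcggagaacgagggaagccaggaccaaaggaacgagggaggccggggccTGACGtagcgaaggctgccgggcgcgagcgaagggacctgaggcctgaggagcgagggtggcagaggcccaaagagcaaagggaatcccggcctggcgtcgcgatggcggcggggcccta
Dis3l, downstream window: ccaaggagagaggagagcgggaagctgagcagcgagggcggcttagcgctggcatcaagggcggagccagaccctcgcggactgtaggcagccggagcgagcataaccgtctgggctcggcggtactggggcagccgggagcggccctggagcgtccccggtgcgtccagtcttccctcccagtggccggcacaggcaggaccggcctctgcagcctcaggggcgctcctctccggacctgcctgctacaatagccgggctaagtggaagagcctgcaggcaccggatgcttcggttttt
Exosc3: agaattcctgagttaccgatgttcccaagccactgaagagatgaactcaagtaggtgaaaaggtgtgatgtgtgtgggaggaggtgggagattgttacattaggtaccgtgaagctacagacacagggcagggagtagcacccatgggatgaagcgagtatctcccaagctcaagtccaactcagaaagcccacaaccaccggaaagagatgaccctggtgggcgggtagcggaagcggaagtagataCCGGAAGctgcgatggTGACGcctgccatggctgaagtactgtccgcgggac
Exosc5: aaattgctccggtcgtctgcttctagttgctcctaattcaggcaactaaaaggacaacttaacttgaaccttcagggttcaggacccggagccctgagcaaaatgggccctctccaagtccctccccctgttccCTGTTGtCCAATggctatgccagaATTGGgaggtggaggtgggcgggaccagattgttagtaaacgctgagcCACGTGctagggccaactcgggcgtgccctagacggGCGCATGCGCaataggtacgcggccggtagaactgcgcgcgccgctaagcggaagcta
Dis3: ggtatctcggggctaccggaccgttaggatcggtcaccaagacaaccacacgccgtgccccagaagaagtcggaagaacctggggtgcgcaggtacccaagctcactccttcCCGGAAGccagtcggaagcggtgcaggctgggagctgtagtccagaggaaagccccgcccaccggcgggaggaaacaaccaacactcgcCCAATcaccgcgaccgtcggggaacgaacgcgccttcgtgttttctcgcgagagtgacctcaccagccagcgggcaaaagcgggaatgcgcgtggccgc

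Letters of 7 binding motifs were searched on both strands, chosen after values and sequences had been seen. The full cyclic AMP response element TGACGTCA, the site of CREB and CREM, was in 0 of the 9 member windows and in 1.80% of 32544 windows of all genes. The matches that follow are those in the 5 printed windows. The inner part TGACG was found in the upstream Dis3l window and in Exosc3, and in 20.9% of all windows. The MYB letters CAACNG were found in the upstream Dis3l window and in Exosc5, and in 34.9% of all windows. Exosc5 held GCATGCGC, the inner letters of the NRF1 site, which were in 2.73% of all windows. It also held the E-box CACGTG, present in 7.17%. The ETS letters CCGGAAG were in Exosc3 and Dis3 and in 8.91% of all windows. The letters CCAAT were in Exosc5 and Dis3 and in 37.4% of all windows. The downstream Dis3l window held none of these letters. Members under the limit at 3 weeks against E18 whose windows are not printed also held some of them. TGACG and GCATGCGC were also in Exosc10, CAACNG in Dis3l2, and CCGGAAG in both. None of the searched letters was in windows of all 3 of Dis3l, Exosc3 and Exosc5. GC content was 72.0% and 68.0% in the Dis3l windows, 54.0% in Exosc3, 57.3% in Exosc5 and 64.0% in Dis3, against a median of 53.0% over all windows. A match says only that these letters occur.

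By the distance between centred profiles of log2(RPKM + 1) over the 4 libraries, the protein-coding symbols of mean RPKM of at least 5 most like DIS3L were RSPH3B (distance 0.0478), ZBTB32 (0.0631) and SUPT20 (0.0675), among 3095 candidates. RSPH3B, of the radial spoke family, had 1.32 RPKM at E14, 1.90 at E18, then 33.3 at 3 weeks and 28.2 at 6 months. ZBTB32 had 0.0872, 0.260, 15.1 and 11.7 RPKM, so its likeness depends on the 1 added to low fetal levels. SUPT20 had 5.09, 5.92, 88.4 and 70.8 RPKM. Those most like EXOSC3 were GEMIN5 (0.0718), ARL6IP6 (0.0817) and TOMM7 (0.0843). Those most like EXOSC5 were CHAF1A (0.0749), OTUD3 (0.110) and ZKSCAN17 (0.121), and CHAF1A, a chromatin assembly subunit, had 2.17, 2.34, 10.005 and 22.3 RPKM. With 4 libraries such likeness is a description of these libraries.

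Of 26 other genes of the exosome system, 25 reached 1 RPKM in at least 1 library, and LIN28A did not. At E18 against E14 0 of 25 were past 2-fold. At 3 weeks against E18 3 were higher, PAPD5, ZCCHC7 and LIN28B, and 0 lower, where 32.0% of all entries and 24.1% of protein-coding symbols were higher. Under the median of ratios 1 was higher, PAPD5 (1.09), and 1 lower, PAPD7 (-1.02), while ZCCHC7 (0.94) and LIN28B (0.95) were under the limit. With that scaling 10918 of all 42964 entries were higher and 5565 lower. PAPD5, a poly(A) polymerase that tags nuclear RNA for the exosome, had 2.12 RPKM at E14, 2.63 at E18, then 8.54 at 3 weeks and 14.5 at 6 months, a difference of 1.39 at 3 weeks against E18. Its paralog PAPD7 had 2.67, 3.44, 1.47 and 0.894 RPKM, and passed the limit at 6 months against E18 (-1.23), but not under ribosomal protein scaling (-0.43). ZCCHC7, the zinc-knuckle partner of PAPD5, had 0.983, 1.49, 4.78 and 2.39 RPKM and a difference of 1.22. LIN28B, which blocks let-7 maturation, had 0.252, 0.164, 1.62 and 0.555 RPKM and a difference of 1.17.

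Of these 25 genes, 0 were higher at 6 months against 3 weeks and 2 were lower, ZCCHC11 and ZFC3H1, where 9.73% of all entries were higher and 14.1% lower. Under the median of ratios 3 were higher and 0 lower, and both calls ended, at -0.66 for ZCCHC11 and -0.46 for ZFC3H1. That scaling also moved the counts over all 42964 entries, to 7364 higher and 1863 lower from 4182 and 6062. ZCCHC11, a uridylyltransferase whose RNA products DIS3L2 degrades, had 4.18, 4.53, 8.65 and 3.09 RPKM over the 4 stages, with a difference of -1.24. ZFC3H1, which directs polyadenylated nuclear RNA to the exosome, had 2.12, 2.41, 5.57 and 2.28 RPKM and a difference of -1.001, just past the limit. The RNA helicase SKIV2L2, the nuclear relative of SKIV2L, had 0.936, 0.981, 2.72 and 1.68 RPKM and was under the limit at each adjacent step, but past it at 3 weeks against E18 with a pseudocount of 0.1 (1.38) and under ribosomal protein scaling (1.57). The median difference of the 25 genes was 0.41 at 3 weeks against E18 and -0.38 at 6 months against 3 weeks, against 0.46 and -0.31 over all entries. Set against E18, at 6 months PAPD5 (2.09), ZCCHC8 (1.199), a subunit of the nuclear exosome targeting complex, and HBS1L (1.06) were higher, and PAPD7 was lower. With an equal sum over protein-coding genes ZCCHC8 (0.68) and HBS1L (0.60) were under the limit.

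Within its list, RBM7, the RNA-binding partner of ZCCHC8, was the highest nuclear cofactor in both fetal libraries, with 4.15 RPKM at E14 and 4.82 at E18. PAPD5 was the highest after birth. The lowest were MPHOSPH6 at E14 (0.854 RPKM) and 6 months (0.822 RPKM), SKIV2L2 at E18 and PAPD7 at 3 weeks. Among the cytoplasmic cofactors PELO, a ribosome rescue factor, was the lowest at each stage, with 1.15, 1.15, 0.714 and 0.724 RPKM, and WDR61 (fetal) and HBS1L (postnatal) were the highest. In the list of uridylation genes ZCCHC11 was the highest at each stage, and LIN28A was the lowest at E14, 3 weeks and 6 months, with 0.0193, 0.752 and 0.133 RPKM, while LIN28B was the lowest at E18.

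**Figure D5:**
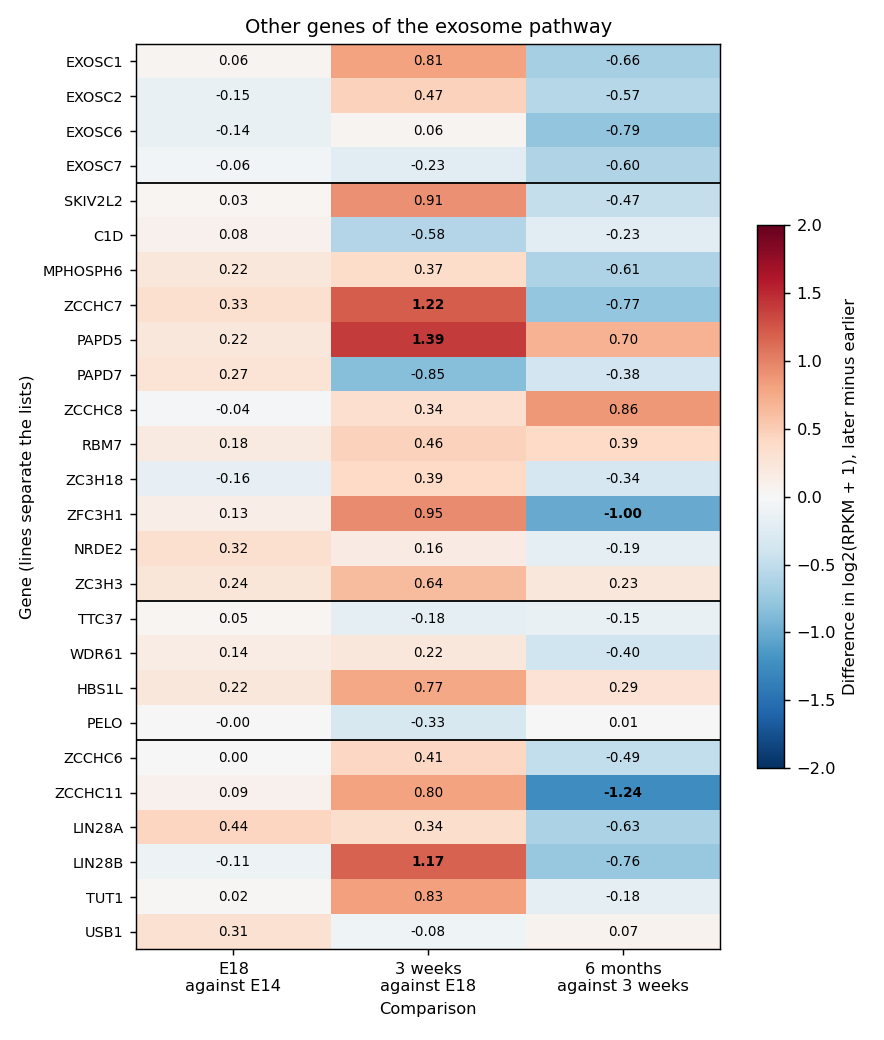
Difference in log2(RPKM + 1), later minus earlier stage (colour and printed value), for 26 other genes of the exosome system at the 3 adjacent steps, with 1 library a stage. Bold values are past 2-fold, such as PAPD5 (1.39) at 3 weeks against E18 and ZCCHC11 (-1.24) at 6 months against 3 weeks.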

How the data were processed

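RNA was sequenced in 4 mouse testis libraries, 1 at each stage. Per the labels' protocols, ribosomal RNA was depleted, spike-in RNA added, polyadenylated RNA isolated and directional libraries made, although 1 label names depletion alone. The authors deposited 1 RPKM value for each of 112302 entries. Per the submitters' processing notes, TopHat2 and mm10 were used. For the counter, annotation and use of strand, nothing was given in the sources used here, so reads of opposite-strand neighbours and pseudogenes may be included.

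From the RPKM, the reads of the denominator were recovered as the commonest product of RPKM and length over single-exon GENCODE M21 genes. Reads and model length per gene were then the smallest whole numbers giving all 4 values (relative tolerance 1e-09), found for all 10 members. A common factor may be lost, which widens an interval. Differences are in log2(RPKM + 1), which understates low genes. Entries reaching 1 RPKM in any library were kept (42964, of which 12661 were protein-coding symbols), and a difference of 1 or more was called. With 1 library a stage no test was run. The procedure was tested on simulated data. Alternatives were a pseudocount of 0.1, a limit of 4-fold, 3 rescalings, other filters and protein-coding symbols alone. The members, lists and rules were chosen with earlier results of these data known: all members are named, with listed genes past the limit or highest or lowest in their list, and the 3 nearest profiles per member past the limit. The planned protein comparison was not run, since no protein sequences were used here. Python 3.11.15, SciPy 1.17.1 and pandas 2.3.3 were used.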

Additional observations from a re-analysis of the deposited data

How the results depend on the processing

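No paired analysis was possible because each stage has 1 library. The counts of members at E18 against E14 did not move under any alternative run, and 0 called differences of members changed sign. DIS3L at 3 weeks against E18 ranged from 3.28 to 4.53 in log2 over the pseudocount and scaling alternatives, EXOSC5 from 1.36 to 2.38 and EXOSC3 from 1.15 to 2.44. Where a count moved by over 1.5 times the cause was not tested. Depth limits the low genes: 3 reads in 1 kb are 0.0771 RPKM at E14 and 0.0884 at 3 weeks.

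Members higher at 3 weeks against E18 numbered 8 under ribosomal protein scaling and 1 at 4-fold. For 6 months against 3 weeks they were 2 under the median of ratios, 2 (with 1 lower) with a pseudocount of 0.1, and 0 under the equal sum over protein-coding genes and at 4-fold. For 6 months against E18 they were 8 under ribosomal protein scaling, 3 under the equal sum and 2 at 4-fold.

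Other exosome genes at 3 weeks against E18 were 17 higher under ribosomal protein scaling, 8 higher and 1 lower with a pseudocount of 0.1, 1 higher and 1 lower under the median of ratios, 1 lower under the equal sum and 0 higher at 4-fold. At 6 months against 3 weeks they were 3 higher and 0 lower under the median of ratios, 1 higher and 1 lower under ribosomal protein scaling, 5 lower with a pseudocount of 0.1 and 0 lower at 4-fold. At 6 months against E18 they were 8 higher and 0 lower under ribosomal protein scaling, 5 higher under the median of ratios, 6 higher and 4 lower with a pseudocount of 0.1, 1 higher and 3 lower under the equal sum, and 1 higher and 0 lower at 4-fold. These counts are of 25 genes. Of 42964 entries, ribosomal protein scaling left 22769 higher at 3 weeks against E18 and 20702 higher at 6 months against E18. With a pseudocount of 0.1, 19642 entries were higher and 7687 lower at 3 weeks against E18. With that pseudocount 6161 were higher and 13337 lower at 6 months against 3 weeks, and 17561 and 11096 at 6 months against E18. Under the median of ratios 16048 were higher and 5143 lower at 6 months against E18.

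Among all entries at E18 against E14, 934 were higher and 574 lower, with 511 and 283 at a minimum of 5 RPKM, 448 and 207 over protein-coding symbols, 3204 and 1768 with a pseudocount of 0.1, 118 and 90 at 4-fold, 508 and 461 under ribosomal protein scaling and 712 and 758 under the median of ratios. At 3 weeks against E18, 13742 were higher and 4532 lower, with 2652 lower at 5 RPKM, 3053 and 1671 over protein-coding symbols, 7687 lower with a pseudocount of 0.1, 6922 and 852 at 4-fold, 22769 and 1251 under ribosomal protein scaling, 10918 and 5565 under the median of ratios and 11432 and 6459 under the equal sum. In 6 months against 3 weeks, 4182 were higher and 6062 lower, with 2367 higher at 5 RPKM, 1208 and 996 over protein-coding symbols, 13337 lower with a pseudocount of 0.1, 1376 and 775 at 4-fold, 7364 and 1863 under the median of ratios and 3145 and 7508 under the equal sum. At 6 months against E18, 14130 were higher and 6603 lower, with 9403 and 3229 at 5 RPKM, 3155 and 2401 over protein-coding symbols, 11096 lower with a pseudocount of 0.1, 7787 and 1392 at 4-fold, 20702 and 2024 under ribosomal protein scaling and 11424 and 10343 under the equal sum. Fewer entries were tested at 5 RPKM and over protein-coding symbols (12661, against 42964), so those counts are of smaller sets. By share, 3.54% of protein-coding symbols were higher at E18 against E14 (2.17% of all entries). At 3 weeks against E18 the share was 24.1% (32.0% of all entries).

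By reads rather than per length, the ratio of DIS3L to DIS3 was 1.07 at E14, 1.57 at E18, then 13.3 at 3 weeks and 8.26 at 6 months. DIS3 was thus the higher at E14 only per length. The E14 value by reads rests on 386 against 361 reads, with no interval computed. The median of all entries moved by -0.20 at 3 weeks against E18 and 0.38 at 6 months against 3 weeks under the median of ratios, by 0.63 and 0.04 under ribosomal protein scaling, and by -0.21 and -0.10 under the equal sum.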
